A study of Mus musculus with 6 samples.

Results

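The interferon response and nucleic acid sensing genes described here were 39 named genes of the mouse type I interferon system, picked by symbol. Of these, 38 had a row in a table of 25628 gene symbols, and 31 reached a mean of 0.5 CPM (read counts scaled to a common library size) over all libraries, the level set for judging a gene. Trex1 was not analysed here. The cells were TgSpi1 leukaemic erythroid blasts of mouse bone marrow, all carrying the number 722 in the labels, which overexpress the transcription factor PU.1 (gene Spi1) and were kept growing with erythropoietin. They carried a doxycycline-inducible shRNA against Spi1. Poly(A) RNA was sequenced from 3 untreated libraries and from 3 libraries of cells given doxycycline for 48 h, numbered 1 to 3 in each group. No library with doxycycline and without the shRNA was analysed here, so the drug, the expression of an shRNA and the loss of Spi1 cannot be told apart. Whether the number 722 stands for 1 clone is not given in the sources used here.

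Cells detect foreign or misplaced RNA with helicases such as RIG-I and MDA5 and misplaced DNA through the adaptor STING, and these signal through IRF3 and IRF7 to switch on interferon genes. Secreted interferon binds its receptor on the same or a neighbouring cell, and the kinases JAK1 and TYK2 then activate STAT factors such as STAT2, which act with IRF9 on a DNA element of interferon-stimulated genes. Many products of these genes block viral replication, and several of the sensors and factors are themselves induced, so the pathway feeds back on itself. Haematopoietic cells keep a low level of many of these mRNAs without infection.

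The element that the complex of STAT2 and IRF9 binds is the interferon-stimulated response element, searched here as GAAA, any 2 bases and again GAAA on both strands of RefSeq promoters (GRCm38.p6, 250 bases before to 50 after a start). The promoter table held 32 promoters of 27 of the 38 genes with a row. The letters occurred in 11 of these 32 promoters (34.4%) and in 1131 of all 32851 promoters of the table (3.44%). The stretches below show the element, in capitals, with its flanks, for 4 genes that fell with doxycycline in the paired fit described further on and for 3 that did not pass it. Overlapping copies are joined, and each stretch is read on the strand where the element has these letters, which is the other strand from the gene for Ddx58, Rsad2 and Ifit1.
Oas1a (chr5:120907523-120907552, minus strand): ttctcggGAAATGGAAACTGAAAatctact
Oas3 (chr5:120777718-120777741, minus strand): gggaggaGAAAACGAAAgtgaagg
Ddx58 (chr4:40239807-40239830, plus strand): gccatagGAAATCGAAActgcctc
Eif2ak2 (chr17:78882538-78882561, minus strand): ccgccggGAAAACGAAAcagaaga
Isg15 (chr4:156200868-156200903, minus strand): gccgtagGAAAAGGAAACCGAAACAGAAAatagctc
Rsad2 (chr12:26456556-26456579, plus strand): gttttctGAAAATGAAAgttggac
Ifit1 (chr19:34640778-34640801, minus strand): gagactgGAAAGTGAAActgaagc

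Whole promoters are shown for 3 genes, for Sp100 the first of its 2 promoters. They had the smallest adjusted p without pairing among judged genes with a promoter in the table. Oas2 had a smaller one but no promoter there. In the paired fit Oas1a and Sp100 fell and Cmpk2 rose. Capitals mark the response element, which was found in Oas1a and not in the windows of Cmpk2 or Sp100.
Oas1a (chr5:120907476-120907775, minus strand): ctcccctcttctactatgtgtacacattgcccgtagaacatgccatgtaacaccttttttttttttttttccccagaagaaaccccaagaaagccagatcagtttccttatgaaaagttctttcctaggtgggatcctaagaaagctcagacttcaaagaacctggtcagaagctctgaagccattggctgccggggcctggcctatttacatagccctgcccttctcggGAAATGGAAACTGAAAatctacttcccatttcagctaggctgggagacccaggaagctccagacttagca
Cmpk2 (chr12:26468965-26469264, plus strand): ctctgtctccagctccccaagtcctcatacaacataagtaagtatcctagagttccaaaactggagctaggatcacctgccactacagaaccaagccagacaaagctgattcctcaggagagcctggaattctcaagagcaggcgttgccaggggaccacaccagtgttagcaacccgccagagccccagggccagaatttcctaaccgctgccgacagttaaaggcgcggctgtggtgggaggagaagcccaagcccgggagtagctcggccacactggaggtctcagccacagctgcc
Sp100 (chr1:85649738-85650037, plus strand): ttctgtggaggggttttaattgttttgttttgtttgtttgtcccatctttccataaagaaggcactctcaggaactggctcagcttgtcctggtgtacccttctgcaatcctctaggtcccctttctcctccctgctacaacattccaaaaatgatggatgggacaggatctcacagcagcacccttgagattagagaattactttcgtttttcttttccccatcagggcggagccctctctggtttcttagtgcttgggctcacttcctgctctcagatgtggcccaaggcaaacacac

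The elements of Isg15 and Oas1a hold overlapping copies. In the Oas1a promoter the joined element starts 20 bases before the RefSeq start site, and that of Oas3 75 bases before it. Those of Ddx58 and Eif2ak2 start 2 and 18 bases after it. Among judged genes with a promoter in the table, the letters were found in 4 of 7 that fell with the block, in 0 of 3 that rose with it (Cmpk2, Parp12 and Xaf1) and in 6 of 15 that did not pass. Oas2, Dhx58, Usp18 and Parp14 also fell with the block but had no promoter in the table, so they could not be searched. The gamma-activated site TTCNNNGAA was found in 7 of 32 promoters of these genes (21.9%) and 8.3% of all promoters. In Bst2 it overlapped the response element. The PU.1 core GAGGAAGT was found in 2 of 32 promoters of these genes (6.25%) and in 3.2% of all. A match describes letters in a window and is no evidence of binding.

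Total counts were between 78926663 and 101276319 per library. The knockdown check showed Spi1 at 415, 353 and 329.6 CPM untreated and 84.8, 80.4 and 62.1 CPM with doxycycline, a log2 fold change of -2.27 (SE 0.17, adjusted p = 0.0030, edgeR). Libraries with equal replicate numbers resembled each other, so each result is given from a fit of the groups alone and from a second fit that adds the replicate number as a blocking term, called the paired fit or the block. A gene passed where its Benjamini-Hochberg adjusted p over all 14158 tested genes was under 0.05 in edgeR's quasi-likelihood test. The erythroid markers were strongly present (summed level 3962 to 5205 CPM untreated and 4615 to 6959 CPM with doxycycline). None of the 12 passed without the block in edgeR. At an unadjusted p under 0.05 there were 0 lower and 3 higher, against 9.56% and 5.86% of all tested genes. In the paired fit 7 rose (58.3%), among them Slc4a1 and Tfrc, against 10.3% of all tested genes. The 1 that fell (8.33%, against 15.6%) was Hbb-bs. Their median paired log2 fold change was 0.37. The part of these marker changes in the results on interferon and sensing genes was not tested. Libraries were bulk, so fewer cells of a type and less RNA per cell cannot be told apart.

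Without the block, 1 of the 31 judged genes passed (3.23% of them), the antiviral enzyme gene Oas2, which fell. Of the 31, Oas2 was the only gene that reached the level for judging through 1 group, the untreated one (means of 1.06 and 0.207 CPM). Over all tested genes 2.18% fell and 0.417% rose in that fit. None of the 31 rose. At an unadjusted p under 0.05 there were 9 lower and 2 higher, against 9.56% and 5.86% of all tested genes. DESeq2 without the block called 5 lower and 1 higher (Cmpk2), against 5.1% and 2.06%. In the paired fit 11 of the 31 fell (35.5%), against 15.6% of all tested genes, and 3 rose (9.68%), against 10.3%. The share that rose is near that of all genes. The 11 that fell were Ddx58, Dhx58, Eif2ak2, Oas1a, Oas2, Oas3, Usp18, Parp14, Dtx3l, Ifi35 and Sp100, and the 3 that rose were Cmpk2, Parp12 and Xaf1. The median log2 fold change of the 31 was -0.22 without and -0.27 with the block, beside 0.01 and -0.00214 over all tested genes. With replicate pair 1 left out of the paired fit, 5 fell (Ddx58, Oas1a, Oas2, Parp14 and Sp100) and 1 rose (Cmpk2), against 6.11% and 2.56% of all genes tested there. The calls of Dhx58, Eif2ak2, Oas3, Usp18, Ifi35, Dtx3l, Parp12 and Xaf1 were lost in that fit (edgeR adjusted p from 0.060 to 0.21). With pair 3 left out 11 fell and 5 rose, against 18.8% and 14.6%, so the share that rose is near that of all genes.

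In 7 of the 31 genes every doxycycline library was below every untreated one (22.6%, against 11.7% of all tested genes), and in 3 every one was above (9.68%, against 8.88%). Within pairs of equal number, 17 of the 31 were lower with doxycycline in all 3 pairs (54.8%, against 29.4%) and 6 were higher in all 3 (19.4%, against 28%).

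Markers of other blood cells were low. Of 12 macrophage and monocyte markers 8 had a row and 3 were judged, with a summed level of 20.4 to 26.4 CPM untreated and 15.9 to 22.3 CPM with doxycycline, most of it Ccr2. Fcgr1, the high-affinity IgG receptor gene, fell without the block from 1.2 ± 0.197 to 0.153 ± 0.121 CPM (SD, n = 3 each). It reached the level for judging through the untreated group. Cd68 fell in the paired fit from 2.06 ± 0.314 to 0.905 ± 0.199 CPM (SD, n = 3 each). Ccr2, the other judged marker, did not pass in either fit, with a log2 fold change of -0.08 without the block. The macrophage receptors Mrc1 and Marco had means of 0.0265 and 0.0167 CPM. Dendritic cell markers summed to 1.97 to 6.61 CPM untreated and 3.4 to 12.1 CPM with doxycycline, with Siglech, the marker of the main interferon-producing cell, at a mean of 0.020 CPM. Of the 2 judged dendritic markers 1 rose in the paired fit, the other did not pass, and none passed without the block. Neutrophil markers moved with the replicate number, at 0.34, 43.4 and 9.99 CPM in untreated replicates 1, 2 and 3 and 0.189, 11.3 and 9.65 CPM with doxycycline. None of the 5 judged neutrophil markers passed in either fit. All 5 had a log2 fold change below 0 without the block, from -1.64 to -1.31. Of them 3 were lower in all 3 pairs (60%, against 29.4% of all tested genes). B cell markers summed to at most 2.3 CPM and T and NK cell markers to at most 7.43 CPM in any library, the latter mostly Lck. Lck, the 1 judged T and NK marker, rose in the paired fit (log2 fold change 0.51) and did not pass without the block. Over all tested genes 15.6% fell and 10.3% rose in the paired fit. The part of these cells in the results on interferon and sensing genes was not tested.

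**Figure D1:**
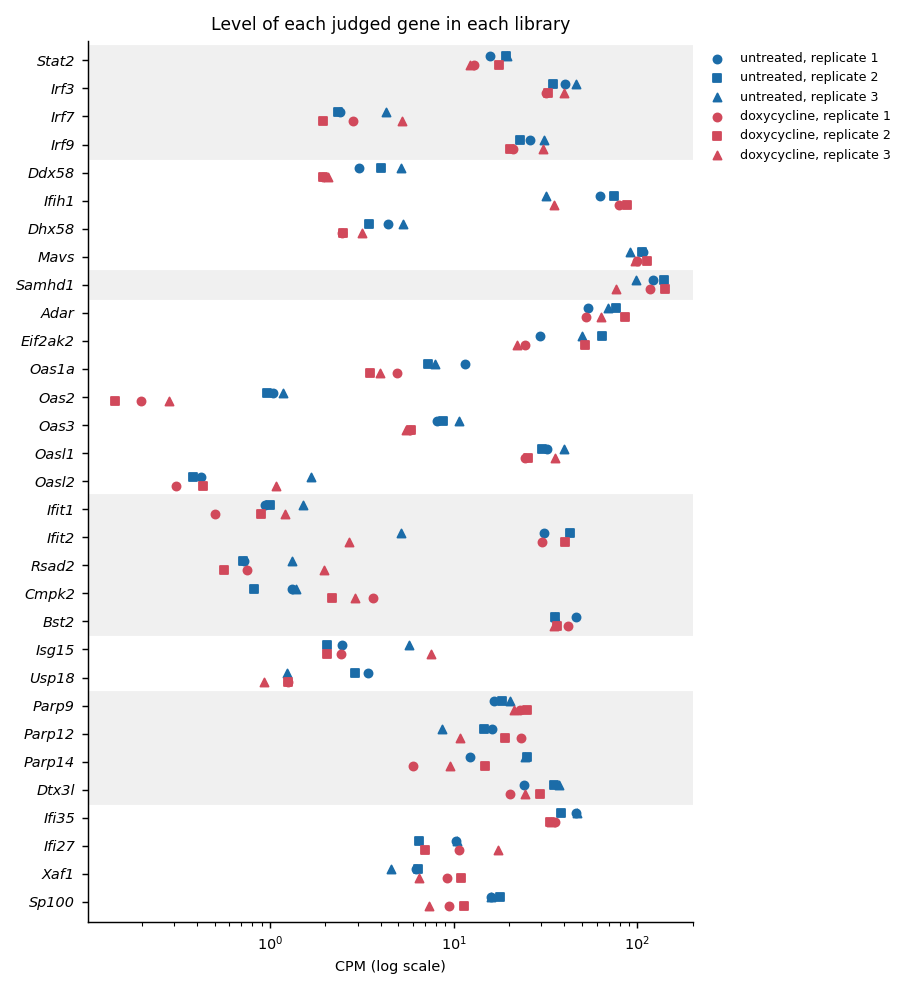
CPM on a log axis for the 31 judged genes, in order of role with shaded bands by role, with blue points for untreated and red points for doxycycline libraries and the marker shape for the replicate number. Oas2, Oas1a and Sp100 have their groups fully apart, whereas Ifit2, Isg15 and Oasl2 are set apart by replicate 3 in both groups.

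Among the signal transducers and transcription factors none of the 4 judged genes passed in edgeR or DESeq2 with all libraries, with or without the block, and 0 had an unadjusted p under 0.05 in edgeR without the block. With pair 2 left out Stat2 passed as lower in the paired fit. Irf3, the factor that sensors activate through phosphorylation, stood at 40.4, 34.7 and 46.2 CPM in untreated replicates 1, 2 and 3 and 31.6, 32.5 and 39.8 CPM with doxycycline. The groups overlapped, and its log2 fold change was -0.22 (SE 0.17, adjusted p = 0.64, edgeR), with a paired value of -0.22 (SE 0.10, adjusted p = 0.13) and adjusted p over 12 alternative settings from 0.13 to 0.88. Stat2, a signal transducer of the interferon receptor, had a log2 fold change of -0.35 (SE 0.20) and Irf9, the subunit of that complex that contacts DNA, one of -0.16 (SE 0.22). Irf7, the inducible amplifier of interferon genes, stood at 2.4, 2.33 and 4.29 CPM untreated and 2.82, 1.94 and 5.22 CPM with doxycycline, with the highest value of each group in replicate 3. Irf9, Irf3 and Irf7 overlap other genes (Rnf31, Bcl2l12 and Phrf1), and the library kit does not mark strand, so the split of reads between these partners is uncertain.

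The RNA helicases split. Ddx58, which encodes the RNA sensor RIG-I (chromosome 4 from 40203773 to 40239828 on the minus strand, GRCm38), stood at 3.07, 4.04 and 5.2 CPM in untreated replicates 1, 2 and 3 and at 1.94, 1.94 and 2.07 CPM with doxycycline. All doxycycline libraries were below all untreated ones and close to each other. Its log2 fold change was -1.05 (SE 0.26, adjusted p = 0.098, edgeR), and it fell in the paired fit by 1.02 on the log2 scale (SE 0.17, adjusted p = 0.0020). Over the 12 alternative settings its adjusted p ranged from 1.4e-05 to 0.31. Dhx58, which encodes LGP2, a relative of RIG-I without signalling domains, went from 4.39 ± 0.938 to 2.72 ± 0.405 CPM (SD, n = 3 each). Its values were 4.41, 3.44 and 5.32 CPM untreated and 2.46, 2.51 and 3.18 CPM with doxycycline, again without overlap. The paired value was -0.68 (SE 0.15, adjusted p = 0.0091), within a range of adjusted p from 0.0025 to 0.54 over the alternatives; without the block its adjusted p was 0.25. It overlaps an antisense transcript, Dhx58os.

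Ifih1, which encodes MDA5, the sensor of long double-stranded RNA, did not pass in either fit. It stood at 62.2, 74.8 and 31.9 CPM untreated and at 79.4, 87.5 and 35.4 CPM with doxycycline. The value was higher with doxycycline in every pair, by 0.35, 0.23 and 0.15 on the log2 scale, and replicate 3 was the lowest of each group. The paired log2 fold change was 0.24 (SE 0.09, adjusted p = 0.075), and with pair 3 left out it passed as higher. Mavs, the mitochondrial adaptor shared by RIG-I and MDA5, stood at 107, 106 and 91.2 CPM and 99.4, 112 and 97.4 CPM. Without the block the log2 fold change was 0.02 (SE 0.13, adjusted p = 0.96, edgeR), with a paired value of 0.03 (SE 0.09, adjusted p = 0.85) and adjusted p over the alternatives from 0.82 to 0.99. Per kilobase of exon, Mavs was at 30.3 CPM untreated, Ifih1 at 6.89, Dhx58 at 1.34 and Ddx58 at 0.582. The helicase genes that were lower with doxycycline in the paired fit were thus the scarcer ones by level.

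Of the DNA sensing group only Samhd1, which hydrolyses deoxynucleotides, reached the level for judging. It stood at 121, 140.3 and 98.1 CPM untreated and 117, 142 and 76.6 CPM with doxycycline, the groups overlapped, and its log2 fold change was -0.10 (SE 0.25, adjusted p = 0.91, edgeR). The paired value was -0.13 (SE 0.10, adjusted p = 0.35) and adjusted p over the alternatives ran from 0.35 to 0.996. Tmem173, which encodes the DNA pathway adaptor STING, had a mean of 0.371 CPM and was therefore not judged. Its deposited counts were 55, 59 and 75 in untreated replicates 1, 2 and 3 and 2, 5 and 2 with doxycycline, where the smallest value in the table is 1. Every doxycycline library was far below every untreated one. Its mean was 0.711 CPM untreated and 0.0311 CPM with doxycycline, so the low doxycycline values put it under the level for judging. It stayed in the fit over all genes through its untreated values alone, so no test result is given for it. It is not among the counts of genes that passed. Zbp1, the sensor of Z-form nucleic acid, had counts of 1 or 2 in all 6 libraries, at the lower edge of the table.

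The oligoadenylate synthetase genes held the single judged gene that passed without the block. Their products make short oligoadenylates when they bind double-stranded RNA. Oas2 (chromosome 5 from 120730333 to 120749853 on the minus strand) stood at 1.04, 0.969 and 1.18 CPM in untreated replicates 1, 2 and 3 and at 0.197, 0.144 and 0.281 CPM with doxycycline, corresponding to deposited counts of 92, 76 and 117 and of 18, 14 and 28. All doxycycline libraries were below all untreated ones. It went from 1.06 ± 0.109 to 0.207 ± 0.0691 CPM (SD, n = 3 each), and its log2 fold change was -2.35 (SE 0.33, adjusted p = 0.018, edgeR). Within the pairs the log2 ratio was -2.40, -2.75 and -2.07. The paired fit gave -2.37 (SE 0.25, adjusted p = 9.7e-05), and adjusted p over the alternatives ran from 4.2e-08 to 0.094. The call was lost without untreated replicate 1 or 2 or doxycycline replicate 1 or 2 (adjusted p of 0.073, 0.081, 0.094 and 0.052).

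Oas1a, a catalytic family member (chromosome 5 from 120896256 to 120907521 on the minus strand), stood at 11.5, 7.28 and 7.89 CPM untreated and 4.93, 3.51 and 3.99 CPM with doxycycline, with the groups apart. The unpaired log2 fold change was -1.10 (SE 0.26, adjusted p = 0.083, edgeR). In the paired fit it fell with a log2 fold change of -1.08 (SE 0.13, adjusted p = 2.5e-04), with a range of 9.1e-11 to 0.27 over the alternatives. Mouse Oas1 genes are near-identical copies, so reads of Oas1a and its relatives are uncertain. Oas3, the long family member that favours long double-stranded RNA (chromosome 5 from 120753098 to 120777661 on the minus strand), went from 8.11, 8.74 and 10.6 CPM untreated to 5.78, 5.88 and 5.53 CPM with doxycycline. The doxycycline values lay within a narrow band below all untreated ones. The fit without the block gave a log2 fold change of -0.68 (SE 0.19, adjusted p = 0.14, edgeR), and the paired value was -0.67 (SE 0.14, adjusted p = 0.0059), with a range of 2.6e-04 to 0.38. Oas2, Oas3 and Oas1a lie in 1 cluster: 3244 bases separate Oas2 from Oas3 and 118594 separate Oas3 from Oas1a. The distant pair Oasl1 and Oasl2, 11005 bases apart on the same chromosome, did not pass in either fit. With pair 3 left out of the paired fit Oasl1 passed as lower. Oasl1 overlaps Gm13822. Oasl1, which in the mouse holds back translation of Irf7 mRNA, was at 32.2, 30.2 and 39.6 CPM untreated and 24.5, 25.5 and 35.4 CPM with doxycycline, and Oasl2 at 0.419, 0.382 and 1.67 CPM and 0.307, 0.432 and 1.08 CPM.

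Other enzymes that act on double-stranded RNA varied between libraries. Eif2ak2, which encodes the kinase PKR that halts translation when it binds double-stranded RNA, stood at 29.7, 63.9 and 49.7 CPM untreated and 24.5, 52 and 22.1 CPM with doxycycline. Replicate 2 was the highest of each group, and the groups overlapped. Each pair was lower with doxycycline, by log2 ratios of -0.28, -0.30 and -1.17. Without the block its log2 fold change was -0.54 (SE 0.40, adjusted p = 0.62, edgeR), and with it the value was -0.58 (SE 0.16, adjusted p = 0.025), with a range of adjusted p from 0.0048 to 0.95. With pair 3 left out the paired value was -0.29 (adjusted p = 0.029). It overlaps Gm26637 and a small RNA gene. Adar, the editor that turns adenosine into inosine in double-stranded RNA, was at 54, 76.3 and 69.4 CPM and 52.5, 85.4 and 63.4 CPM. It had a log2 fold change of 0.01 (SE 0.22, edgeR adjusted p = 0.99). Adjusted p over the alternatives ran from 0.62 to 0.99, and the sign changed between settings. Adar overlaps Chrnb2.

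Of the antiviral effectors, 5 of 9 were judged. Of these 1, Cmpk2, passed in the paired fit, where 15.6% of all tested genes fell and 10.3% rose. Cmpk2, a mitochondrial nucleotide kinase, rose there. Its levels were 1.31, 0.816 and 1.38 CPM in untreated replicates 1, 2 and 3 and 3.65, 2.17 and 2.91 CPM with doxycycline, where every library was above every untreated one. It went from 1.17 ± 0.31 to 2.91 ± 0.743 CPM (SD, n = 3 each), and its log2 fold change was 1.31 (SE 0.32, adjusted p = 0.092, edgeR). The paired value was 1.31 (SE 0.18, adjusted p = 4.4e-04), and the adjusted p ranged from 7.9e-08 to 0.32 over the alternatives. Its neighbour Rsad2, which encodes the antiviral enzyme viperin and lies head to head with it at a distance of 12751 bases, stood at 0.725, 0.714 and 1.31 CPM untreated and 0.746, 0.565 and 1.98 CPM with doxycycline, and its paired value was 0.15 (SE 0.23, adjusted p = 0.68).

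Bst2, which encodes tetherin, a protein that holds budding virus at the cell surface, stood at 46.4, 35.6 and 35.5 CPM untreated and 41.9, 36.4 and 35.1 CPM with doxycycline, with overlapping groups, and its log2 fold change was -0.05 (SE 0.17, adjusted p = 0.93, edgeR). The paired value was -0.04 (SE 0.09, adjusted p = 0.76), with a range of 0.76 to 0.996. Ifit2, whose product binds viral RNA, was at 30.9, 42.9 and 5.18 CPM untreated and 30.1, 40.5 and 2.7 CPM with doxycycline. Replicate 3 was far below the others in both groups. Ifit1, the reader of incompletely capped RNA, was at 0.94, 1.01 and 1.52 CPM and 0.505, 0.894 and 1.2 CPM, lower with doxycycline in every pair, and did not pass with a paired value of -0.45 (SE 0.21, adjusted p = 0.15). Below the level for judging were Ifit3 (mean 0.212 CPM), Rtp4 (0.186 CPM), and the GTPase genes Mx1 (0.0226 CPM) and Mx2 (0.0488 CPM), which common laboratory mouse strains carry in defective form.

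Isg15 and Usp18 encode a ubiquitin-like tag and the protease that removes it, which also restrains the interferon receptor. Usp18 stood at 3.41, 2.89 and 1.23 CPM untreated and 1.25, 1.25 and 0.923 CPM with doxycycline. Untreated replicate 3 lay among the doxycycline values, so the groups overlapped. Each pair was lower with doxycycline (-1.45, -1.21 and -0.42 on the log2 scale). In the unpaired fit the log2 fold change was -1.13 (SE 0.40, adjusted p = 0.23, edgeR). The paired fit gave -1.05 (SE 0.22, adjusted p = 0.0062), with a range of 0.0010 to 0.56. Usp18 overlaps Gm44148. Isg15 stood at 2.47, 2.05 and 5.73 CPM and 2.44, 2.03 and 7.53 CPM, high in replicate 3 of both groups. Its log2 fold change was 0.23 (SE 0.60, adjusted p = 0.92, edgeR), the paired value was 0.13 (SE 0.16, adjusted p = 0.57), and the range was 0.57 to 0.996.

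The ADP-ribosylation group moved in both directions. Parp14, a mono-ADP-ribosyltransferase, was at 12.3, 25 and 24.5 CPM untreated and 5.99, 14.8 and 9.57 CPM with doxycycline. Replicate 1 was the lowest of each group and the groups overlapped, while the pairs gave -1.04, -0.76 and -1.36 on the log2 scale. Without the block the log2 fold change was -1.03 (SE 0.39, adjusted p = 0.27, edgeR), and the paired value was -1.05 (SE 0.13, adjusted p = 3.3e-04), with a range of 4.6e-11 to 0.61. Dtx3l, a ubiquitin ligase that works bound to PARP9, was at 24.1, 35.1 and 37.3 CPM and 20.3, 29.4 and 24.4 CPM. The unpaired log2 fold change was -0.38 (SE 0.22, adjusted p = 0.51, edgeR), and it fell in the paired fit with -0.37 (SE 0.11, adjusted p = 0.034), with a range of 0.025 to 0.85. That call was lost without pair 1 (adjusted p = 0.14) and without pair 3 (0.087).

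Parp9, the partner of Dtx3l, stood at 16.6, 18.4 and 20.3 CPM untreated and 23, 25.2 and 21.2 CPM with doxycycline. All doxycycline libraries were above all untreated ones. The paired value was 0.33 (SE 0.12, adjusted p = 0.065) and did not pass. Parp9 passed as higher in DESeq2 with the block, in the paired fit with DESeq2 size factors and with pair 3 left out. Parp9 and Dtx3l start head to head and overlap on chromosome 16, where Parp14 lies 54966 bases from Dtx3l, and without strand the reads of their shared stretch cannot be split. Parp12, another mono-ADP-ribosyltransferase, was at 16.2, 14.6 and 8.61 CPM and 23.2, 19 and 10.8 CPM, higher in each pair (0.52, 0.38 and 0.33). The fit without the block gave a log2 fold change of 0.43 (SE 0.34, adjusted p = 0.65, edgeR), and it rose in the paired fit with 0.41 (SE 0.11, adjusted p = 0.022), with a range of 0.0037 to 0.94. That call was lost without pair 1 (adjusted p = 0.21) and without pair 2 (0.065).

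Of the other induced genes, Sp100, a scaffold of nuclear bodies, stood at 16, 17.9 and 16.1 CPM in untreated replicates 1, 2 and 3 and at 9.46, 11.4 and 7.32 CPM with doxycycline. All doxycycline libraries were below all untreated ones. It went from 16.6 ± 1.09 to 9.38 ± 2.02 CPM (SD, n = 3 each), its log2 fold change was -0.83 (SE 0.20, adjusted p = 0.093, edgeR), and the paired value was -0.85 (SE 0.13, adjusted p = 0.0010), with a range of 1.0e-07 to 0.34. Ifi35, a regulator of innate signalling, was at 46.4, 38.3 and 46.9 CPM and 35.6, 33.3 and 33.7 CPM, without overlap. In the unpaired fit the log2 fold change was -0.36 (SE 0.14, adjusted p = 0.30, edgeR), and the paired value was -0.36 (SE 0.10, adjusted p = 0.025), with a range of 0.019 to 0.57. Sp100 overlaps Gm17017 and Ifi35 overlaps Gm11626.

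Xaf1, which encodes a protein that promotes apoptosis by binding XIAP, stood at 6.24, 6.4 and 4.55 CPM untreated and 9.24, 11 and 6.51 CPM with doxycycline. Doxycycline libraries were higher in every pair (0.57, 0.78 and 0.52 on the log2 scale), with the lowest doxycycline library just above the highest untreated one. Its log2 fold change was 0.64 (SE 0.26, adjusted p = 0.31, edgeR), and it rose in the paired fit with 0.62 (SE 0.13, adjusted p = 0.0060), with a range of 1.4e-04 to 0.57. Ifi27, a mitochondrial protein gene, was at 10.3, 6.45 and 10.4 CPM and 10.6, 7.02 and 17.4 CPM and did not pass with a paired value of 0.31 (SE 0.15, adjusted p = 0.17). Ifi44 had counts of 1 to 7 and was not judged.

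**Figure D2:**
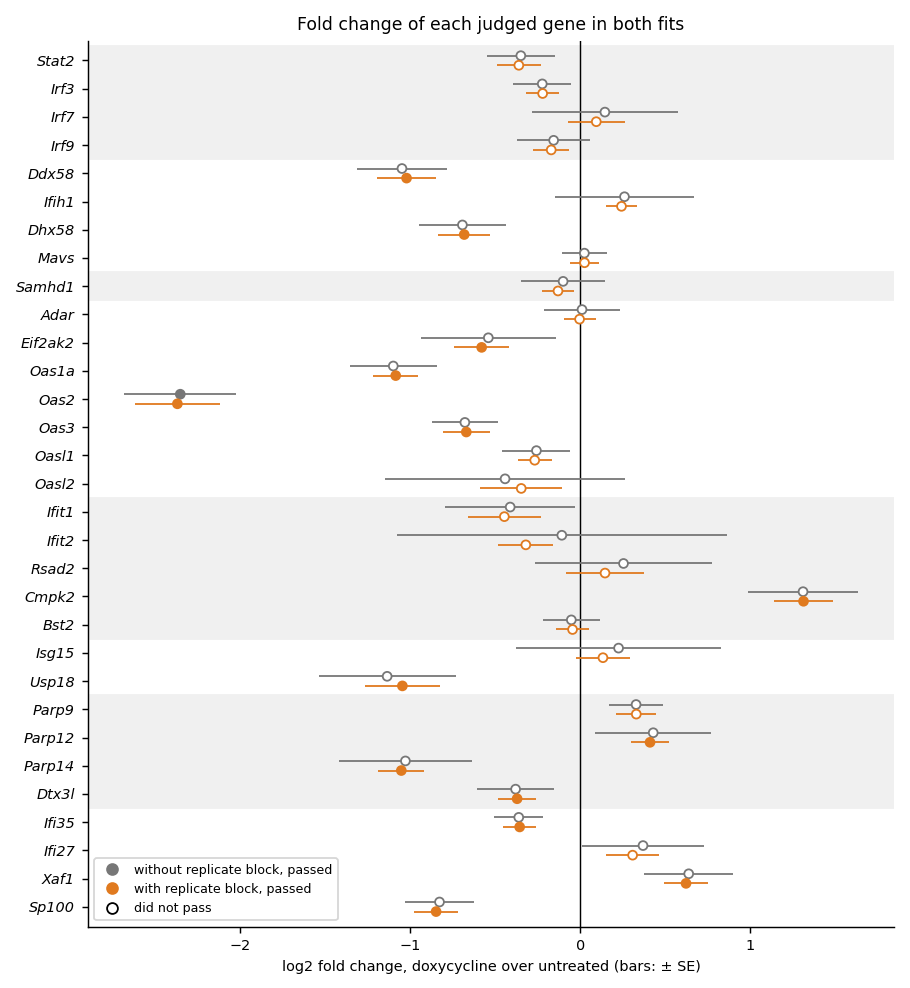
Log2 fold change of doxycycline over untreated with its SE for the 31 judged genes, in grey without and in orange with the replicate block; filled points passed. Oas2 is the single filled grey point, and 11 orange points below 0 and 3 above it are filled, with shorter bars than the grey ones.

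More of these genes passed a test of the replicate number than of doxycycline in the paired fit, and so did more of all tested genes. Over all tested genes 6127 differed between the numbers, while 2206 fell and 1452 rose with doxycycline. The test of the number compared all 3 numbers at once, so the tests differ in kind. Of the 31, 20 (64.5%) differed between the numbers, against 43.3% of all tested genes. The test of the number was chosen after the data were examined. Of the 20, 8 were higher in replicate 3 than in the mean of replicates 1 and 2 in both groups and 7 were lower in both. These directions were not counted over all tested genes. Ifit2 was lower in replicate 3 by log2 ratios of -2.83 untreated and -3.71 with doxycycline, and Ifih1 by -1.10 and -1.24. Isg15 was higher by 1.34 and 1.75, Oasl2 by 2.06 and 1.55, and Irf7 by 0.86 and 1.13. These named genes thus stood on both sides in the same libraries, and whether other genes do so alike was not tested. What the numbers denote is not given in the labels. The summed neutrophil markers, given above, also differed by number and were lowest in replicate 1 of both groups, and their part in this pattern was not tested. Oas2, Oas3, Ddx58, Dhx58, Sp100 and Ifi35 were among the 11 that did not differ between the numbers.

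**Figure D3:**
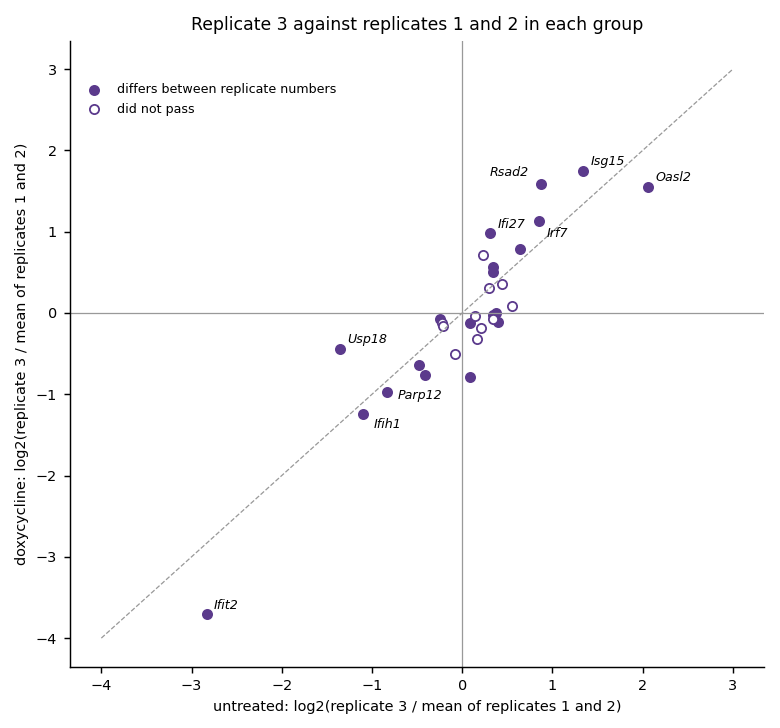
Log2 ratio of replicate 3 to the mean of replicates 1 and 2 for the 31 judged genes, untreated on the x axis and doxycycline on the y axis; filled points differ between replicate numbers and the dashed line marks equal ratios. Ifit2 lies at the lower left, and Isg15, Oasl2, Rsad2 and Irf7 at the upper right.

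Interferon genes with a row in the table were at or next to its lowest value. Ifnb1, the gene of interferon beta, had the table's lowest value of 1 in all 6 libraries, and Ifnab and Ifne had 1 in 5 libraries and 2 in 1 untreated library each. A count of 0 allows up to 3 counts of a library, between 0.0296 and 0.038 CPM, for counting error only. Other interferon genes of the list were not analysed here.

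Further genes of the pathway were counted from lists of general knowledge, apart from the genes above. The lists were chosen with earlier results of these data known, so their counts are no independent support for the results above. Of 98 judged genes in 4 lists, 5 fell (5.1%) and 1 rose (1.02%) without the block, against 2.18% and 0.417% of all tested genes. In the paired fit 46 fell (46.9%) and 5 rose (5.1%), against 15.6% and 10.3%. Without pair 1 the paired fit called 16 lower and 2 higher, against 6.11% and 2.56% of all genes tested there. Leaving 1 library out of the unpaired fit left 0 to 4 lower and 0 to 1 higher. Of 15 judged receptors, kinases and factors, 2 fell (13.3%) without the block, and 7 fell (46.7%) and 3 rose (20%) with it. Ptpn6, the phosphatase SHP-1 that damps cytokine receptors, went from 82.5 ± 4.09 to 38.6 ± 2.89 CPM (SD, n = 3 each), and its log2 fold change was -1.10 (SE 0.13, adjusted p = 0.014, edgeR). Irf5, a factor downstream of Toll-like receptors, went from 7.12 ± 0.268 to 2.67 ± 0.205 CPM (SD, n = 3 each). Its log2 fold change was -1.41 (SE 0.20, adjusted p = 0.018, edgeR). Irf5 overlaps Tnpo3 and Ptpn6 overlaps Gm20531.

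Of 18 judged other sensors and adaptors, 8 fell (44.4%) and none rose with the block, against 15.6% and 10.3% of all tested genes. Without it 1 fell (5.56%, against 2.18%). This was Unc93b1, the chaperone that carries nucleic acid sensing Toll-like receptors to endosomes, which went from 5.26 ± 0.518 to 1.43 ± 0.241 CPM (SD, n = 3 each). Without the block the log2 fold change was -1.88 (SE 0.24, adjusted p = 0.014, edgeR). Of 11 judged nucleases and editing enzymes none passed in edgeR without the block. At an unadjusted p under 0.05 there were 2 lower and 0 higher, against 9.56% and 5.86% of all tested genes. With the block 2 fell (18.2%) and 1 rose (9.09%), near the 15.6% and 10.3% of all tested genes. Dnase2a, the lysosomal DNase, fell with the block and overlaps Mast1. It was at 70.0, 63 and 81.2 CPM untreated and 42.4, 45.6 and 55.8 CPM with doxycycline, below in every library. Its paired log2 fold change was -0.58 (SE 0.09, adjusted p = 0.0014, edgeR).

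Of 54 other judged interferon-induced genes, 29 fell (53.7%) and 1 rose (1.85%) with the block, against 15.6% and 10.3% of all tested genes. Without it 2 fell (3.7%) and 1 rose (1.85%), against 2.18% and 0.417%. Oas1c, a relative of Oas1a in the same cluster, went from 1.98 ± 0.0692 to 0.704 ± 0.0945 CPM (SD, n = 3 each). Its log2 fold change was -1.49 (SE 0.24, adjusted p = 0.027, edgeR). Its reads carry the doubt given for Oas1a, and it overlaps Gm43069. Tent5a, a poly(A) polymerase, went from 55.8 ± 11.3 to 29.5 ± 0.674 CPM (SD, n = 3 each), and its log2 fold change was -0.92 (SE 0.18, adjusted p = 0.044, edgeR). Ifi30, a lysosomal thiol reductase of antigen processing, was the one that rose, from 12.7 ± 2.87 to 28.4 ± 2.05 CPM (SD, n = 3 each), and its log2 fold change was 1.16 (SE 0.20, adjusted p = 0.030, edgeR). Median paired log2 fold changes were -0.17 for receptors, kinases and factors, -0.29 for other sensors and adaptors, 0.06 for nucleases and editing enzymes and -0.39 for other induced genes.

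**Figure D4:**
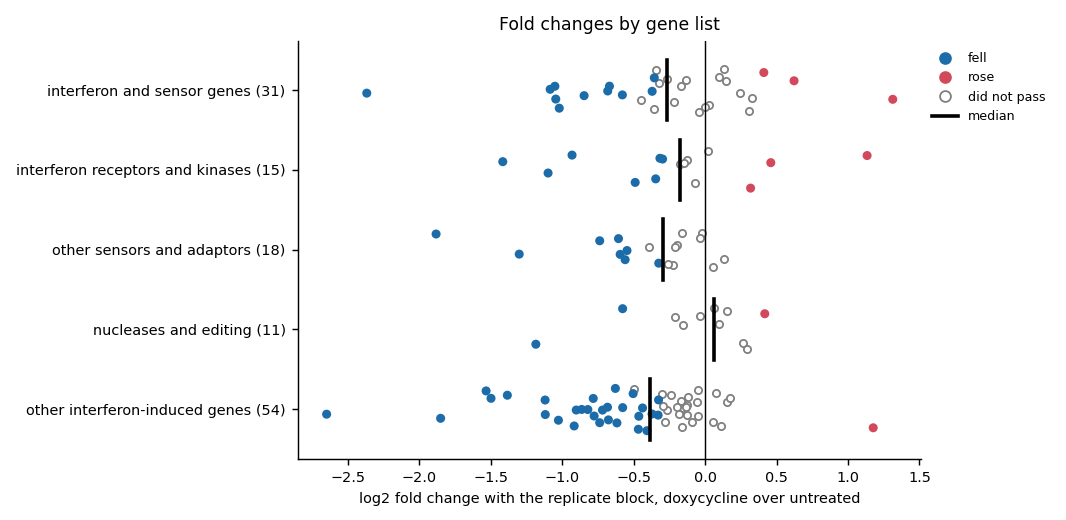
Log2 fold change in the paired fit for each judged gene, by list (number of genes in brackets), with blue for genes that fell, red for genes that rose, open circles for genes that did not pass and black bars for medians. Blue points outnumber red ones in each list, with 29 against 1 among the other interferon-induced genes. Among nucleases and editing enzymes there are 2 against 1, near the shares of all tested genes.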

How the data were processed

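Per the labels' protocols, poly(A) libraries were made with the Illumina TruSeq RNA kit v2, which does not mark strand. The authors deposited raw read counts per gene symbol. Per the submitters' processing notes, the tools included STAR, DESeq2 and bcl2fastq 2.17.1.14, and the builds were GRCm38 and mm10. Which program and annotation gave the counts is not given in the sources used here. The smallest value in every column was 1, so every count seems to be raised by 1; no value was altered for the main test.

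Columns were matched to samples by name. Counts were tested with edgeR 4.0.16 (quasi-likelihood, TMM factors, filterByExpr, two-sided; R 4.3.3) over all 14158 genes kept, with Benjamini-Hochberg adjustment. SE is |log2 fold change| / sqrt(F). CPM use TMM-scaled library sizes and are given for each library or as mean ± SD. Per-kilobase levels, positions and overlaps used GENCODE M21 (GRCm38).

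Deviations from the group mean were correlated between libraries of equal number (across genes, 0.828, 0.828 and 0.751; other pairs -0.69 to -0.11), so the replicate number was taken to pair the libraries. Residual degrees of freedom were 4 without the block and 2 with it. The labels call the libraries biological replicates without naming separate cultures, so p-values measure the spread between these libraries.

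Genes described in full were those passing in either fit and the most abundant by CPM of each role. In the other lists they were up to 3 genes that passed without the block, or else 2 with the smallest paired p, of which 1 is not reported here. Genes, lists and tests were chosen with earlier results of these data known. Alternatives were other size factors, no filter, DESeq2 1.42.0, 1 taken off each count, the block, a mean of 2 CPM and leaving out libraries.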

Additional observations from a re-analysis of the deposited data

How the results depend on the processing

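Without the block, 1 of the 31 genes fell and none rose, and 5 and 1 of the other pathway genes. With the replicate block these counts were 11 and 3, and 46 and 5. Over all 14158 tested genes 308 fell and 59 rose without the block, and 2206 and 1452 with it. DESeq2 gave 5 and 1, and 19 and 2 without the block, and 11 and 4, and 43 and 7 with it. Its calls over all tested genes were 722 and 291 without the block and 1966 and 1436 with it. A mean of at least 2 CPM left 0 fallers, since Oas2 lies below that level. Leaving out 1 library gave 0 to 1 fallers and 0 to 0 risers among the 31, and 0 to 4 fallers and 0 to 1 risers among the others. Over all genes tested there those fits called 35 to 242 lower and 0 to 26 higher.

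In alternatives added after the data were examined, the paired fit gave 5 and 1, and 16 and 2 without pair 1. It gave 12 and 2, and 39 and 5 without pair 2, and 11 and 5, and 51 and 6 without pair 3. Over all genes tested these fits called 880 and 368 of 14399, 2119 and 1310 of 14226, and 2677 and 2071 of 14212. With 1 taken off each count the paired fit gave 11 and 3, and 46 and 5, beside 2162 and 1400 of all 13995 genes. With DESeq2 size factors it gave 11 and 4, and 45 and 7, beside 2118 and 1622 of all 14158.

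Of the 20 genes described in full, 5 changed sign, and none of these passed in those settings: Mavs (-0.0453 without untreated replicate 3, -0.0399 without doxycycline replicate 2, -0.0069 without pair 3), Samhd1 (0.0254 without untreated replicate 2, 0.122 without doxycycline replicate 3), Adar (-0.0035 with the block, -0.0046 with the block and 1 taken off, -0.101 without untreated replicate 1, -0.2001 without doxycycline replicate 2, -0.0823 without pair 2), Bst2 (0.11 without untreated replicate 1, 0.0102 without doxycycline replicate 3, 0.0219 without pair 1) and Isg15 (-0.0389 without untreated replicate 2, -0.606 without doxycycline replicate 3, -0.0143 without pair 3). Over all fits without 1 library the highest or lowest values of the same genes at the other end were 0.0854 (Mavs), -0.3058 (Samhd1), 0.1602 (Adar), -0.1331 (Bst2) and 0.8226 (Isg15). The cause was not tested. The most that another size factor moved the median of all genes was under 0.1 on the log2 scale. Depth limits the genes of a few counts in every library, such as Zbp1 and Mx1.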
